A study of Rattus norvegicus with 2 samples.

Results

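The natriuretic peptide system was examined in the hearts of male Dahl salt-sensitive (DS) rats, an inbred line that develops high blood pressure on a salty diet. Its members here were the genes of the peptides ANP (Nppa) and BNP (Nppb), of the receptor that signals through cGMP (Npr1) and of the clearance receptor (Npr3). They were found as every probe set whose platform annotation carries 1 of these 4 symbols, which gave 10 of 8740 non-control probe sets, for 4 of 4736 annotated genes. The high-salt group was 1 array of heart RNA from rats labelled with chronic heart failure, and the low-salt group was 1 array of heart RNA from rats of the same strain, sex and age with no such label. Both were sampled at 17 weeks. The labels give no other agent or allele, and do not say which chamber was taken or whether RNA of several animals was pooled.

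ANP and BNP are hormones that heart muscle cells release when their walls are stretched. Both bind Npr1, a membrane guanylyl cyclase, and the cGMP it makes relaxes vessels and promotes loss of salt and water through the kidney. Npr3 has no cyclase domain and removes the peptides from the circulation. In the healthy adult heart Nppa RNA is mainly atrial, and both peptide genes are textbook markers of a ventricle under load.

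Nppa and Nppb lie next to each other on chromosome 5 in the RefSeq annotation of the rat (GRCr8), transcribed in the same direction. The windows around their RefSeq starts, 250 bases before to 50 after, are shown because both genes read higher on high salt. The Nppa window is chr5:163711934-163712233 and the Nppb window chr5:163699758-163700057, both on the plus strand. Capitals mark matches to 4 short motifs searched on both strands: TGATAA, which GATA factors bind, TATAAA, the TATA box, CATTCC, the M-CAT motif of TEAD factors, and CAAGTG, which Nkx2-5 binds.
Nppa: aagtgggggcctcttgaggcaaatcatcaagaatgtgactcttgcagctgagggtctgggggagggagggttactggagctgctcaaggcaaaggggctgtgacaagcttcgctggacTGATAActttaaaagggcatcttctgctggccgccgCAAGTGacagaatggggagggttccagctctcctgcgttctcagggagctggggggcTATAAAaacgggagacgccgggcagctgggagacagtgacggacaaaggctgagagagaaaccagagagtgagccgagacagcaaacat
Nppb: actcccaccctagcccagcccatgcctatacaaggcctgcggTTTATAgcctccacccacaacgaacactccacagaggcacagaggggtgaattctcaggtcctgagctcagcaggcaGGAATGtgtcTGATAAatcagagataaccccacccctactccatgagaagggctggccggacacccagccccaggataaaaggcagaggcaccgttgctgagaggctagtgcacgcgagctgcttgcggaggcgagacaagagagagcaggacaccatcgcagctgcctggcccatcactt

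Both windows held TGATAA on the plus strand, beginning 132 bases before the Nppa start and 121 bases before the Nppb start. This motif was in 9.03% of 33469 rat promoter windows of 300 bases. In Nppa, TATAAA began 39 bases and CAAGTG 96 bases before the start. In Nppb, CATTCC was matched on the minus strand 131 bases before the start and TATAAA on the minus strand 208 bases before it. The TATA and M-CAT motifs were each in 14.2% of all windows and the Nkx2-5 motif in 14.1%, and no match overlapped another. For Nppb the start used by the table lies inside the annotated gene span, so its distances hold for that start alone. Neither receptor window held any of the 4 motifs. The matches describe letters alone.

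Each array gave 1 intensity per probe set on a linear scale, already brought to a common level: the 2% trimmed mean was 99.2 on both. On each array 27.3% of the non-control probe sets read below 0. A noise floor of 126.4 was set at the 95th percentile of the size of these negative values. It was reached by 20.0% of probe sets on high salt and 20.3% on low salt. Ratios are of high over low salt, with any lower value first raised to this floor, and no ratio is given where both values lay under it. With 1 array per diet there is no spread between animals, no test and no p-value, and precision is limited by this number of arrays. A partial guide to error is that log2 ratios of probe sets for the same gene had a pooled SD of 0.22 (231 genes). It covers measurement within this pair of arrays only. It also pools probe sets whose designs can share sequence, so it may be too small for independent probe sets.

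Heart muscle markers were bright on both arrays. The cardiac actin gene Actc1 read 8364.9 on high salt and 7848.9 on low salt, and the ventricular light chain gene Myl2 read 7677.8 on high salt and 6884.4 on low salt. All 7 cardiomyocyte markers that reached the noise floor were within 2-fold at their brightest probe set, with a median log2 ratio of -0.10. Actc1 and Myl2 were the 2 with a ratio above 1, and the other 5 had a ratio below 1. Dimmer probe sets of Myh6 gave log2 ratios of -0.52 and -0.94, against -0.10 in its brightest. The dimmer Tnni3 probe set gave -0.48, against -0.19 in the brighter.

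Nppa RNA was several-fold higher on high salt in all of its 4 probe sets. Probe set E00698cds_s_at read 5997.7 on high salt and 833.4 on low salt, a 7.20-fold difference. Probe set X01118_at read 4965.5 on high salt and 585.2 on low salt, or 8.49-fold. Probe set E00903cds_s_at read 6499.9 on high salt and 716.2 on low salt, or 9.08-fold. Each of these 3 readings on the low-salt array stood clear of the noise floor, so the ratios are measured on both sides. Probe set E00775cds_s_at gave the widest difference, at 7841.0 on high salt against 353.7 on low salt, or 22.2-fold.

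On the log2 scale the ratios of the 4 Nppa probe sets averaged 3.40 ± 0.73 (SD over probe sets of 1 gene, which are not replicates of a diet), or 10.5-fold. The lowest was 2.85 and the highest 4.47. Most of the spread came with E00775cds_s_at: the other 3 averaged 3.04 ± 0.17 (SD, n = 3 probe sets), or 8.21-fold, close to the SD of 0.22 usual between probe sets of a gene. That set was singled out after its value was seen. X01118_at is the one Nppa probe set of a type designed to be unique to its gene, whereas the other 3 carry a suffix for designs that can share sequence. How far the probes of the 4 sets overlap is not known here, so they count as repeated readings of 1 transcript.

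**Figure D1:**
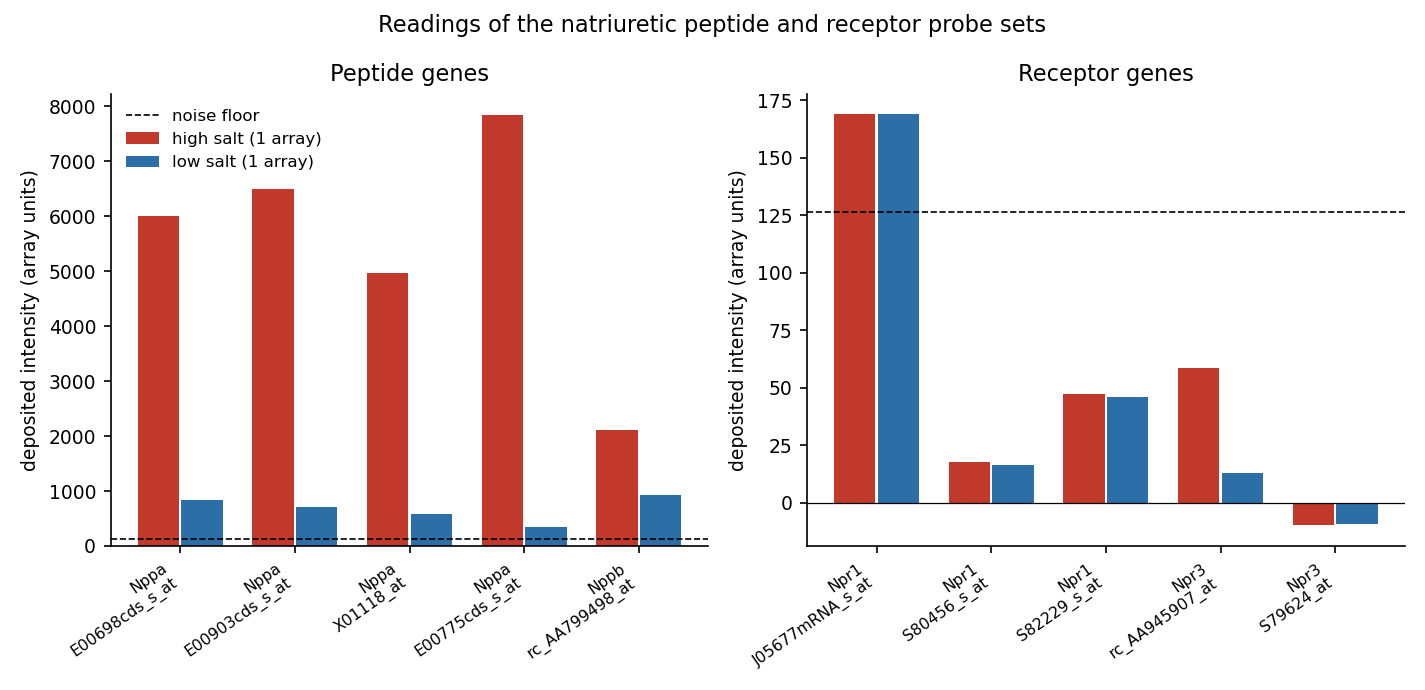
Deposited intensity in array units (y axis) of the 10 member probe sets (x axis), with the high-salt array as the left and the low-salt array as the right bar of each pair; the dashed line is the noise floor of 126.4. All 5 peptide probe sets were higher on high salt, and the only receptor probe set above the noise floor, J05677mRNA_s_at of Npr1, read 168.8 on high salt and 168.9 on low salt.

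Nppb RNA was also higher, by a smaller factor. Its single probe set, rc_AA799498_at, read 2104.3 on high salt and 927.2 on low salt, a difference of 1177.1 intensity units or 2.27-fold. The log2 ratio of 1.18 exceeds the pooled SD between probe sets of 0.22, but no second Nppb probe set was there to repeat it. The Nppa log2 ratios were larger than that of Nppb by 1.66 to 3.29. The fold difference of Nppa was thus 3.17 to 9.77 times that of Nppb. The 2 peptide genes therefore differed in the size of their ratio by more than this pooled SD, which may be too small. The SD over the Nppa probe sets themselves was 0.73. Without replicate arrays the difference between the genes was not tested.

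Npr1, the signalling receptor, read the same on both arrays in the 1 probe set that reached the noise floor. J05677mRNA_s_at read 168.8 on high salt and 168.9 on low salt, a ratio of 0.999. The other 2 Npr1 probe sets lay under the noise floor on both arrays. S82229_s_at read 47.4 on high salt and 45.8 on low salt, and S80456_s_at read 17.6 on high salt and 16.3 on low salt. No Npr1 probe set differed by more than 1.6 intensity units. J05677mRNA_s_at was itself at 134% of the noise floor on each array, so it gives limited room to see a lower level, and all 3 are of a type that can share sequence.

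Npr3, the clearance receptor, was not measurable in either heart. Probe set rc_AA945907_at read 58.4 on high salt and 13.1 on low salt, which are 46.2% of the noise floor on high salt and 10.4% on low salt. The second, S79624_at, read -9.9 on high salt and -9.1 on low salt. The first set gives a ratio of 4.46 if a floor as low as 10.9 is used, which lies inside the range of the negative values. With no reading of either set above the noise floor, Npr3 has no direction here.

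Of the 10 member probe sets, 6 reached the noise floor, all 6 on both arrays. Of these, 5 were at least 2-fold higher on high salt, none was at least 2-fold lower, and 1 was neither, with a median log2 ratio of 2.96. Of the 5, 4 are repeated readings of Nppa, which also set this median. By gene, 2 of the 3 measured members were at least 2-fold higher, with a median of 1.18. Over all 1216 measured genes, 43 were at least 2-fold higher, with a median of -0.04. Among all 1955 probe sets that reached the noise floor on an array, 69 were at least 2-fold higher (3.53%) and 33 at least 2-fold lower (1.69%), with a median of -0.04. Among the 1561 that were above it on both arrays, 48 were higher (3.07%) and 22 lower (1.41%). The 4 Nppa probe sets held the 4 highest ratios of those 1561, Nppb ranked 29 and the Npr1 probe set 711. Over all 1955, where ratios can be lower bounds, the Nppa sets ranked 1, 5, 6 and 7 and Nppb 44. Both Alox15 probe sets (log2 ratios of at least 4.27 and 4.03) and that of Reg3b (at least 3.37) lay, at these bounds, between the Nppa sets.

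**Figure D2:**
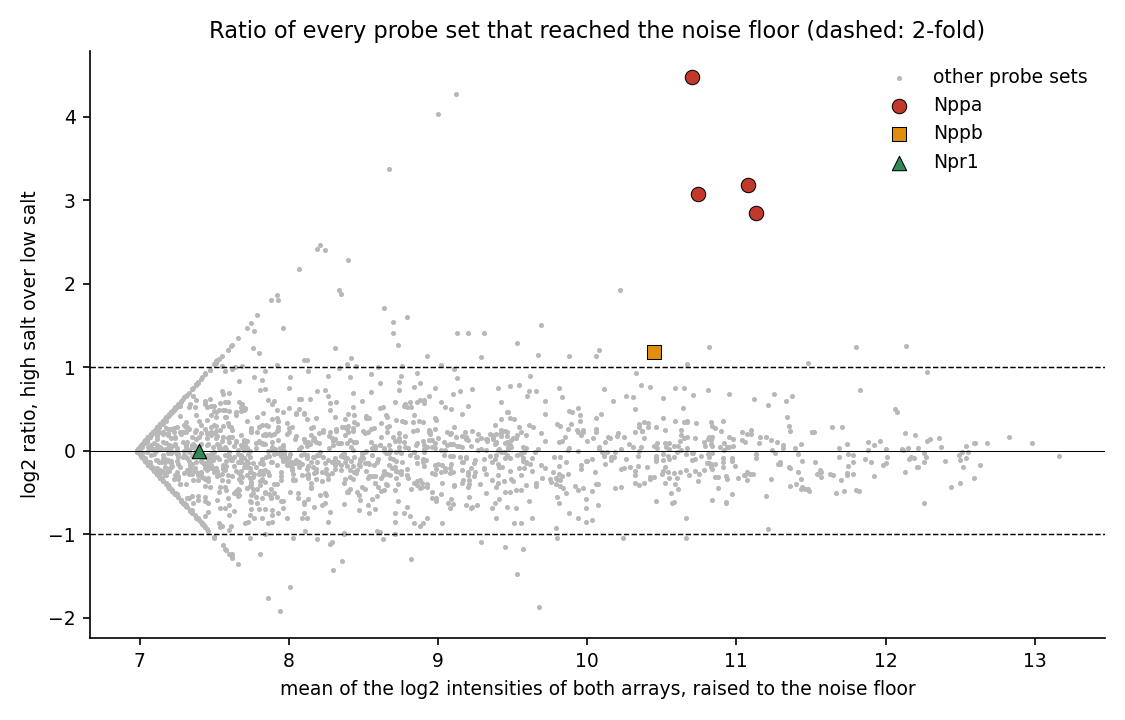
Log2 ratio, high over low salt (y axis), against the mean log2 intensity of both arrays (x axis) for the 1955 probe sets that reached the noise floor; dashed lines mark 2-fold, and points on the slanted edges have 1 value raised to the floor. The Nppa points lie between 2.85 and 4.47, Nppb at 1.18 and Npr1 on the zero line.

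With 2 arrays, likeness between genes can be judged by the ratio alone. Among 962 genes above the noise floor on both arrays, each taken at its brightest probe set, none had a higher ratio than Nppa. The 3 next were Bgn, which encodes the matrix proteoglycan biglycan, at 5.28-fold, the globin gene Hba-a3 at 4.88-fold and Tsc22d1 at 3.82-fold. Bgn read 695.2 on high salt and 131.6 on low salt, close to the noise floor on the low-salt side, and its other probe set read 0.0 on high salt and 120.2 on low salt, both under the floor. Around Nppb, at rank 20, lay Maoa (monoamine oxidase A, 2.36-fold), App (amyloid precursor protein, 2.35-fold) and Dbn1 (drebrin, 2.34-fold) above it. Mfge8 (2.21-fold), Grn (progranulin, 2.17-fold) and Atp6ap1 (2.13-fold) followed below. Maoa read 2777.4 on high salt and 1178.0 on low salt. The log2 ratios of these 6 lay within 0.09 of that of Nppb, less than the SD of 0.22 between probe sets, so their order carries no information.

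The genes beside the peptide pair on chromosome 5 were looked up by RefSeq order. Of the 20 nearest protein-coding genes, 10 on each side, 3 were on the array. Mfn2, a mitochondrial fusion gene, read 254.3 on high salt and 361.5 on low salt in rc_AA874813_s_at. In its other probe set, U41803_at, it read 367.0 on high salt and 432.8 on low salt. Its log2 ratios of -0.51 and -0.24 were opposite in sign to those of Nppa and Nppb and under 2-fold. Plod1 (64.1 on high salt, 47.5 on low salt) and Fbxo2 (-47.1 on high salt, -68.3 on low salt) lay under the noise floor. The remaining 17 had no probe set under their gene ID and were not analysed here.

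Most other genes of the pathway were too dim to read. Over 8 lists of 79 genes covering other ligands and receptors, processing, secretion, cGMP signalling and transcription, 56 were on the array, here meaning a probe set with that symbol alone, and 16 reached the noise floor. None of the 16 was at least 2-fold higher or lower against the noise floor, where the ratios of Gata4, Egr1 and Fos are lower bounds on the size of the difference; 10 had a ratio above 1 and 6 below. Their median log2 ratio was 0.25, against -0.04 over all 1216 measured genes, and it was 0.03 without probe sets of designs that can share sequence. Of those 1216, 43 were at least 2-fold higher and 23 lower. The reference list of housekeeping genes, with 7 measured and none past 2-fold, had a median of 0.18.

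The third peptide of the family and its receptor were under the noise floor. Nppc, which encodes CNP, read 15.3 on high salt and 13.2 on low salt in E04009cds_s_at, and 8.8 on high salt and 20.1 on low salt in D90219_at. Npr2, the receptor of CNP, read 22.0 on high salt and 28.7 on low salt. None of the 6 genes on the array of soluble guanylyl cyclase and nitric oxide synthases reached the floor, so this other source of cGMP could not be compared. Downstream, the cGMP-degrading enzyme Pde5a read at most 48.7, and Pln, which encodes phospholamban, a brake on the calcium pump and a target of cGMP-dependent kinase, read 1624.3 on high salt and 1899.7 on low salt. Gnai2, an inhibitory G protein subunit of the kind Npr3 couples to, read 821.2 on high salt and 675.8 on low salt in its brightest probe set. It read 510.1 on high salt and 500.0 on low salt in rc_AA875225_at, and 492.7 on high salt and 418.5 on low salt in M12672_at.

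Among the enzymes that act on the peptides, 3 of 6 genes on the array reached the noise floor. Furin, a protease that can cut the BNP precursor, read 178.1 on high salt and 141.0 on low salt in its brighter probe set and 144.3 on high salt and 147.4 on low salt in the other. The related protease Pcsk6 read 201.4 on high salt and 254.2 on low salt. The insulin-degrading enzyme Ide, which also cleaves natriuretic peptides, read 220.0 on high salt and 202.1 on low salt. For Pcsk6 and Ide these are the brighter probe sets, and the other set of each lay under the noise floor. Mme, which encodes neprilysin, the peptidase blocked by sacubitril, was dim at 25.9 on high salt and 28.1 on low salt. Corin, the protease that cuts the ANP precursor, had no probe set under that symbol.

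In the secretory granule list, Pam stood out by brightness. It encodes an amidating enzyme that is abundant in the membrane of atrial granules. It read 3070.9 on high salt and 1922.6 on low salt in its brightest probe set, rc_AA891068_f_at, a 1.60-fold difference. The other bright sets, E03428cds_s_at and rc_AA799575_f_at, read 2753.3 and 1812.1 on high salt, against 1791.6 and 1170.8 on low salt. Its 3 log2 ratios of 0.62 to 0.68 were all under 2-fold, and its remaining 4 probe sets lay under the noise floor. Cpe, carboxypeptidase E, read 350.6 on high salt and 464.9 on low salt, and the vesicle protein gene Vamp2 read 131.1 on high salt and 160.6 on low salt.

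Of 19 transcription factors known to act on the Nppa or Nppb promoter, 11 were on the array and 6 reached the noise floor. Gata4, a zinc finger factor of heart muscle that binds GATA motifs, read 176.6 on high salt and 67.5 on low salt in L22761_at. With the low-salt value under the noise floor this is at least 1.40-fold higher, and it passes 2-fold with a floor of 84.9. Its other probe set read 148.6 on high salt and 119.2 on low salt. Gata6, its relative, read 288.7 on high salt and 299.3 on low salt, and the homeobox factor gene Nkx2-5 read 391.1 on high salt and 338.3 on low salt. Jun read 276.8 on high salt and 216.3 on low salt, while Fos (158.3 on high salt, 107.9 on low salt) was near the floor. The other probe sets of Gata6, Jun and Fos lay under the noise floor on both arrays. The 2 Egr1 probe sets that reached the floor differed in direction, with log2 ratios of -0.32 and 0.27.

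Of the hormone inputs, both genes that reached the noise floor had ratios above 1 but under 2-fold. Ece1, which makes active endothelin, read 332.7 on high salt and 216.1 on low salt, or 1.54-fold, in D29683_at. Its other probe set lay under the noise floor, at 44.4 on high salt and 43.9 on low salt. Ace, which makes angiotensin II, read 196.1 on high salt and 133.2 on low salt, or 1.47-fold, in its only probe set. Its low-salt reading was close to the noise floor. Edn1, the endothelin gene itself, was dim at 43.0 on high salt and 33.4 on low salt.

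**Figure D3:**
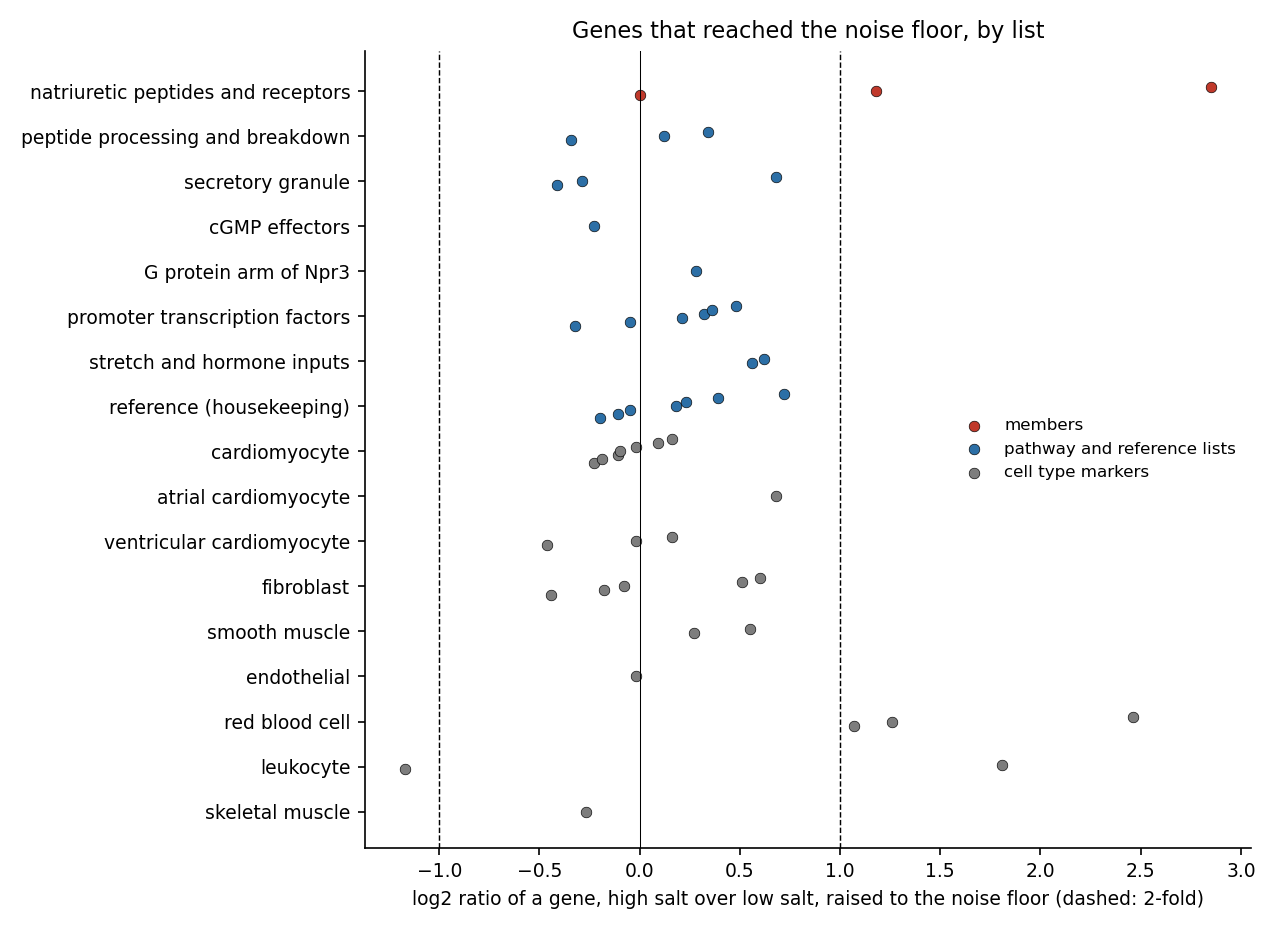
Log2 ratio, high over low salt (x axis), of each gene that reached the noise floor, at its brightest probe set, by list (y axis); dashed lines mark 2-fold and vertical offsets within a list only separate points. Nppa and Nppb lie beyond 2-fold, while all 16 pathway genes lie within it against the noise floor. The points of Gata4, Egr1 and Fos are lower bounds on the size of the difference. So are those of the markers Alas2, Slc4a1, Lum and Flt1. Red blood cell and leukocyte markers also pass 2-fold.

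Because Nppa is an atrial transcript in the healthy heart, the other atrial markers are given beside it. Of 5 on the array, only Pam reached the noise floor. The other 4 (Myl7, Myl4, Kcna5 and Kcnj3) lay under it on both arrays, several below 0, with no reading above 96.0. Their sums, 98.9 on high salt and 41.8 on low salt, are of readings within the noise and give no direction. Myl7, the atrial light chain, read 96.0 on high salt and 95.5 on low salt in its brighter set, and 84.5 on high salt and 46.6 on low salt in the other. Ventricular markers summed to 16053.1 on high salt and 16239.5 on low salt, with Fhl2 at 2409.1 on high salt and 3308.8 on low salt. In whole tissue, more cells that make a transcript and more transcript per cell cannot be told apart.

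Markers of 2 blood-borne cell types also differed between these arrays. The 3 red cell markers measured all passed 2-fold upward on high salt in their brightest probe sets, summing to 7944.9 against 3134.8 on low salt. The second Slc4a1 probe set above the floor, J04793_at, showed no such difference, at 168.3 on high salt and 174.8 on low salt. Hbb, a beta-globin gene, read 6982.3 on high salt and 2910.5 on low salt. Of the 4 leukocyte markers on the array, Lyz2 was 3.52-fold higher, Cd74 was 2.26-fold lower, and 2 were under the noise floor. Their part in the peptide ratios was not tested. Fibroblast markers (5 measured of 7, median -0.08), smooth muscle (2 of 6, 0.41), endothelial (1 of 4, -0.02) and skeletal muscle markers (1 of 5, -0.27) had none past 2-fold. The fibroblast markers were split at their brightest probe sets. Col1a1 (0.51) and Col1a2 (0.60) had log2 ratios above 0, while Dcn (-0.08), Pdgfra (-0.18) and Lum (-0.44, a bound) had ratios below 0. The smooth muscle median rests on Des (0.55) and Acta2 (0.27). Tagln, Myh11, Cnn1 and Actg2 lay under the noise floor, so this median gives no clear reading of smooth muscle. The endothelial value is of Flt1, which read 121.3 on high salt and 127.9 on low salt, so raising to the noise floor holds it near 0.

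The member ratios changed little with other scalings and floors. The lowest peptide reading, 353.7 on low salt, exceeds the highest alternative floor of 271.2. The other floors and the filter on both arrays therefore could not change the peptide ratios. Scaling by the 2% trimmed mean could hardly change any ratio, as this mean was 99.2 on both arrays. Over 9 alternatives the log2 ratio of Nppb stayed between 1.10 and 1.23. That of Nppa stayed between 2.71 and 2.90 in E00698cds_s_at, and between 4.13 and 4.52 in E00775cds_s_at.

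**Figure D4:**
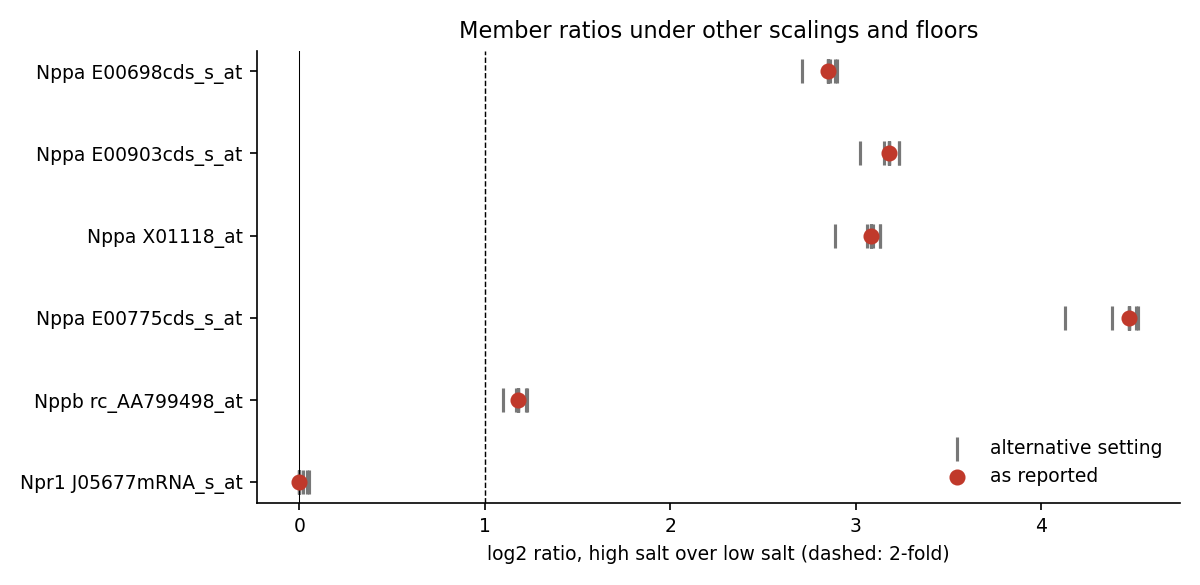
Log2 ratio, high over low salt (x axis), of the 6 member probe sets that reached the noise floor (y axis), as reported (points) and under each alternative scaling or floor (ticks); the dashed line marks 2-fold. All ticks of Nppa and Nppb lie above 2-fold and those of Npr1 lie between 0.00 and 0.05.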

How the data were processed

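Heart RNA was labelled with biotin as cRNA by in vitro transcription, per the labels' protocols, and the authors deposited 1 linear intensity per probe set and array. Which software, background step and detection calls lie behind these intensities is not given in the sources used here. Of 8740 non-control probe sets, 7006 had 1 symbol in the platform annotation of 2016, 308 had several and 1426 had none; genes were named from those with 1. The members and gene lists were chosen with earlier results of these data known.

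Values were used as deposited. The noise floor (126.4) is the 95th percentile of negative values by size. The brightest probe set stood for a gene. The threshold was 2-fold. The genes named are all member probe sets, listed genes that reached the noise floor, and the genes nearest Nppa and Nppb in ratio, up to 3 on each side. Alox15 and Reg3b were named because their ratios lay between those of the Nppa probe sets. Dim listed genes, motif searches and chromosomal neighbours were added after their values were seen. Steps were tested on simulated data. Alternatives were 4 scalings, 3 other floors or none, a filter on both arrays, 1.5-fold and 3-fold thresholds, and other probe set rules. Promoter sequences are from RefSeq (GRCr8) and all 4 members matched. Python 3.11.15, numpy 2.4.6, pandas 2.3.3, statsmodels 0.14.6 and matplotlib 3.10.9 were used.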

Additional observations from a re-analysis of the deposited data

How the results depend on the processing

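Across 11 alternatives, 4 to 6 member probe sets were at least 2-fold higher and none was at least 2-fold lower; with 3-fold as the threshold Nppb dropped out, and with the floor at 10.9 Npr3 was added. The log2 ratio of Nppa E00775cds_s_at was 4.13 with log2(value + 100). The background counts depended on the floor. They were 415 probe sets higher and 435 lower with the floor at 10.9, and 193 and 169 with log2(value + 100). With the floor at 271.2 they were 40 and 10, and with it at 84.9 they were 94 and 57. At 1.5-fold the counts were 171 higher and 176 lower, and at 3-fold 21 and 4. Of the pathway genes, 3 were higher and 6 lower with the floor at 10.9 (median log2 ratio -0.12), and 3 and 2 with log2(value + 100) (median -0.04); of these only Gata4 (with the floor at 10.9) reached the noise floor. With the floor at 84.9, 1 was higher (Gata4), and at 1.5-fold, 2 were (Pam and Ece1). That median, 0.25 as reported, was 0.12 with the floor at 84.9 or at 271.2 and 0.03 without probe sets of shared design. No scaling moved the median ratio of all probe sets by over 0.1. No paired analysis was possible because each diet had 1 array. The precision is limited by the number of arrays, and for Npr1, Npr3 and most pathway genes by readings near or under the noise floor.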
